A study of Mus musculus with 7 samples.

Results

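The olfactory receptor genes on mouse chromosomes 1, 11 and 15 are the protein-coding genes of these chromosomes whose symbol is Olfr followed by a digit, and they numbered 119 of the 1110 such genes and of 21887 protein-coding genes in all. The 3 chromosomes were chosen by the frequency of H3K27me3 peaks, a repressive histone mark, at their receptor genes in these same libraries, so counts of that mark here describe the choice and were not tested. The cells were globose basal cells, the dividing progenitors of the olfactory epithelium, from wild-type adults killed 7 to 10 days after methimazole, which destroys much of the olfactory epithelium and sets off its regrowth. Each replicate was a pool from 3 mice, enriched on magnets through an antibody to the receptor c-Kit, and the design has no group without methimazole. Chromatin immunoprecipitation and sequencing gave 2 libraries for H3K27me3 and 2 for H3K27ac, with 3 input libraries whose peaks were not analysed here. Nothing in the labels says more about how the pools of a mark differ, so agreement of 2 libraries may be partly technical.

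Odorant receptors are G protein-coupled receptors, and each olfactory neuron comes to express 1 allele of 1 receptor gene. Their genes stand in tandem clusters, most with a single coding exon, and in neurons the silent ones are packed in constitutive heterochromatin that carries other marks (H3K9me3 and H4K20me3). H3K27me3 is written by Polycomb Repressive Complex 2 and is best known at genes of developmental regulators, many of them rich in CpG, while H3K27ac marks active promoters and enhancers. In a pool of cells, a strong mark in few cells and a weak mark in many cells cannot be told apart.

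A receptor gene was counted as marked when peaks of both libraries of a mark overlapped, by at least 1 bp, the gene body with 1 kb on each side. H3K27me3 marked 53 of the 119 genes (44.5%), against 38.9% of all protein-coding genes. Replicates 1 and 2 taken alone had a peak at 63 and 62 of the 119 (52.9% and 52.1%), against 58.8% and 41.8% of all protein-coding genes. In 47 genes neither library had a peak. The receptor genes are much shorter, with a median length of 960 bp against 17169 bp over all protein-coding genes. Among receptor genes of up to 1300 bp on the 3 chromosomes 44 of 99 (44.4%) were marked, against 111 of 1043 other protein-coding genes of that length that are not olfactory receptors (10.6%), and 26 of 88 such genes on the same chromosomes that are not chemoreceptors (29.5%). Per length, stretches covered in both libraries made up 7.73% of the receptor windows and 2.77% of the windows of all protein-coding genes. At receptor genes of up to 1300 bp on the 3 chromosomes such stretches made up 9.11% of the windows. At other genes of that length they made up 3.59% where the gene is not an olfactory receptor. On the same chromosomes they made up 9.24% at those that are not chemoreceptors, so coverage did not exceed that of these genes.

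By chromosome, 9 of 9 receptor genes were marked on chromosome 15, 34 of 83 (41.0%) on chromosome 11 and 10 of 27 (37.0%) on chromosome 1. Just outside the choice stood chromosome 8, with 2 of 5 genes (40%, above chromosome 1), chromosome 4, with 6 of 24, and chromosome 7, with 31 of 239 (13.0%). Chromosomes 2 and 9 hold large receptor clusters and were the named contrast. They too were chosen on H3K27me3, so the low counts there describe the choice and were not tested. There 3 of 287 genes (1.05%) and 0 of 130 genes were marked, while peaks of replicates 1 and 2 alone were found at 8 and 6 genes of chromosome 2 and at 4 and 2 genes of chromosome 9. The 3 marked genes were Olfr368, Olfr1264 and Olfr1272, named after their values were seen. Genes of chromosomes 2 and 9 that are not olfactory receptors carried H3K27me3 at shares (47.4% and 44.5%) near those of chromosomes 1, 11 and 15 (43.8%, 46.3% and 49.9%).

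Before the single clusters are described, 6 sequences show what lies at the receptor gene starts. They are RefSeq windows of build GRCm38.p6 from 250 bases before to 50 bases after the annotated start, read 5′ to 3′ on the strand of the gene, with each CpG dinucleotide in capitals, because base composition was one of the features that varied with the mark. The first 4 are the best-ranked marked genes of the clusters where at least 60% of genes were marked, and the other two are the first genes by position without a peak in the clusters of at least 3 genes where under 15% were marked. Olfr12 (chr1:92619631-92619930, plus strand), Olfr222 (chr11:59571689-59571988, minus strand), Olfr463 (chr11:87893873-87894172, minus strand) and Olfr286 (chr15:98234401-98234700, minus strand) were marked. Olfr16 (chr1:172956518-172956817, plus strand) and Olfr20 (chr11:73350609-73350908, plus strand) were not.
Olfr12: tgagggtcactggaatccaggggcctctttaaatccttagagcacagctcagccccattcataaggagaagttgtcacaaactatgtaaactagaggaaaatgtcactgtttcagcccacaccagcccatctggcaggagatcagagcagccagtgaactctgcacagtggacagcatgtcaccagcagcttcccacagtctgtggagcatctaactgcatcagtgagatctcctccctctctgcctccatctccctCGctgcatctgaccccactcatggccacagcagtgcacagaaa
Olfr222: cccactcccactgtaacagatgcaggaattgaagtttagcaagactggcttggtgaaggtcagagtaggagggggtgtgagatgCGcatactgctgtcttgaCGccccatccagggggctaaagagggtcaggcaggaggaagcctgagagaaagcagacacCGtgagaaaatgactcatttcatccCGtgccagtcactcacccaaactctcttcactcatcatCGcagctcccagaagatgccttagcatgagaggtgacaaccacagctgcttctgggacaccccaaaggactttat
Olfr463: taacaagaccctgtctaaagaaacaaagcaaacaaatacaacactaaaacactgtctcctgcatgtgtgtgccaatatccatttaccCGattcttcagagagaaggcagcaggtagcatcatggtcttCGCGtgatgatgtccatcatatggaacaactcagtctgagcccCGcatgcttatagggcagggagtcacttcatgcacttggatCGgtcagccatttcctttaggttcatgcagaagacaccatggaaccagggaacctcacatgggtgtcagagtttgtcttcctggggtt
Olfr286: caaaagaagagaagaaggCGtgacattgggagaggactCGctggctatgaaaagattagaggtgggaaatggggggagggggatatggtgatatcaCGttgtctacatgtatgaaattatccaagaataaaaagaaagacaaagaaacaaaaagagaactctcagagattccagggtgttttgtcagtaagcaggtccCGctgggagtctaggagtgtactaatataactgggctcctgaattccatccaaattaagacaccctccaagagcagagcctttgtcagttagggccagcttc
Olfr16: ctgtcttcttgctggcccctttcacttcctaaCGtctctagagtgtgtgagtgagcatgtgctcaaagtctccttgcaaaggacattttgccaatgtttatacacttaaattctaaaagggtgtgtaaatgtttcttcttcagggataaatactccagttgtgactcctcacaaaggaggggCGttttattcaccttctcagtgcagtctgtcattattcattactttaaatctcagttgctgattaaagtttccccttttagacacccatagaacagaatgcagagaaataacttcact
Olfr20: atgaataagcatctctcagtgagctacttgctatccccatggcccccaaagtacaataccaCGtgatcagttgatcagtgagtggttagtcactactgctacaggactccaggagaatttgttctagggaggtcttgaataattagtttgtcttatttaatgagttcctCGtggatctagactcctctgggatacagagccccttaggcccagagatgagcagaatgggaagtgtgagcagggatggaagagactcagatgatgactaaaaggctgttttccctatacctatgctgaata
The windows of the marked genes held 52.3%, 52.7%, 47.0% and 44.7% GC with 1, 5, 5 and 4 CpG, in the order shown. The windows of Olfr16 and Olfr20 held 40% and 45% GC with 2 CpG each, so that of Olfr20 was slightly above that of the marked gene Olfr286. Such windows matched 104 of the 119 genes, and in 61 of them the annotated start is the ATG of the coding exon, so that the transcription start may lie outside the window.

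Receptor genes less than 1 Mb apart were joined, which gave 9 clusters on the 3 chromosomes, and the share of marked genes varied widely between clusters of a chromosome. In 3 clusters every gene was marked, namely Olfr1416 to Olfr12 on chromosome 1 (8 of 8), Olfr288 to Olfr279 on chromosome 15 (9 of 9) and Olfr462 to Olfr464 on chromosome 11 (3 of 3). The cluster from Olfr30 to Olfr225 on chromosome 11 had 16 of 24 genes marked and 1 gene, Olfr319, without a peak in either library. At the other end, 4 of 30 genes from Olfr20 to Olfr412 on chromosome 11 and 2 of 19 from Olfr16 to Olfr220 on chromosome 1 were marked. Over the whole genome there were 34 clusters of at least 3 genes, 8 of them on these chromosomes. In 6 of the 34 at least 60% of genes were marked, 4 of them on these chromosomes, and in 23 under 15% were. The other two were a cluster of chromosome 4 from Olfr70 to Olfr155 (5 of 6) and one of chromosome 7 from Olfr522 to Olfr541 (13 of 19).

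**Figure D1:**
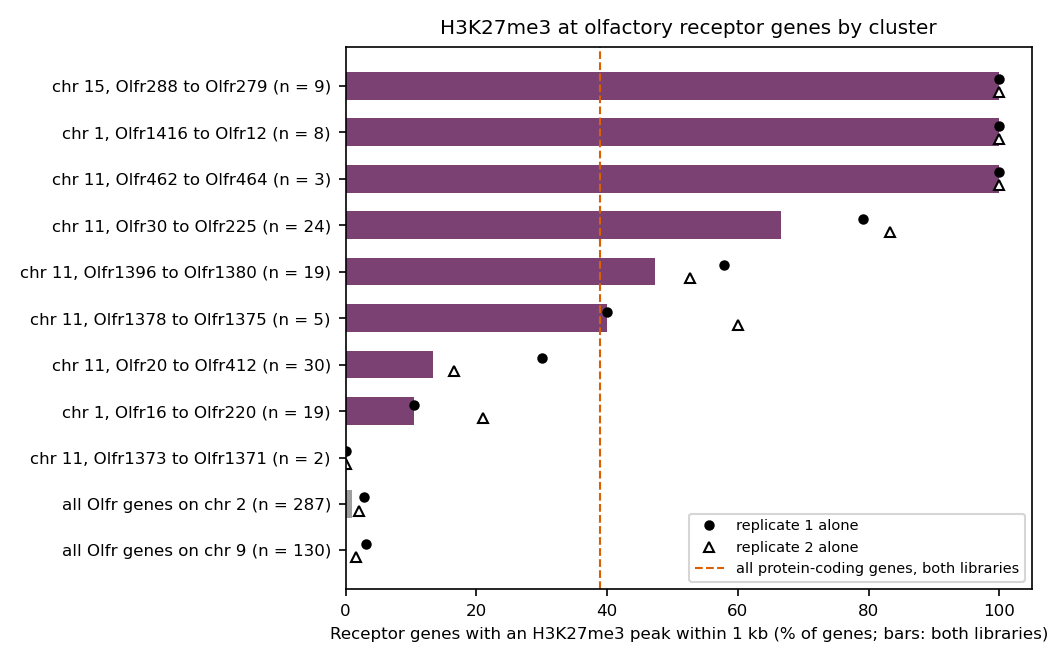
Percentage of olfactory receptor genes with an H3K27me3 peak within 1 kb of the gene, for the 9 clusters of chromosomes 1, 11 and 15 (purple bars) and for all receptor genes of chromosomes 2 and 9 (grey bars). Bars count genes with peaks of both libraries, circles and triangles count each library alone, and the dashed line is the 38.9% of all protein-coding genes. 3 clusters stand at 100%, and the smallest cluster, Olfr1373 to Olfr1371, and chromosome 9 stand at 0.

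The cluster from Olfr1416 to Olfr12 (chromosome 1, 92479681 to 92621001, 141 kb) had the highest share of its span under peaks of both libraries among the 9 clusters, 18.7%. In each library by itself the span from Olfr462 to Olfr464 was covered more, with 29.0% and 41.2% in replicates 1 and 2, against 22.2% and 31.1% here. Its 8 genes are Olfr1416, Olfr1415 and Olfr1414, of receptor family MOR103, and Olfr1413, Olfr1412, Olfr1411, Olfr1410 and Olfr12, of family MOR208 (families as given by the MOR names among the RefSeq synonyms). At Olfr12 the best peak had a fold enrichment over background of 4.72 in H3K27me3 replicate 1 and 4.15 in replicate 2, and stretches covered in both libraries took 91.7% of its window. At Olfr1412 the best peaks stood at 5.05 and 3.90. The weakest gene of the cluster in replicate 1 was Olfr1415, at 2.91, with 3.37 in replicate 2. Over the 8 genes fold enrichment ran from 2.91 to 5.05 in replicate 1 and from 3.24 to 4.15 in replicate 2. The receptor windows were covered to 48.4% in both libraries, against 10.7% of the sequence between them. No H3K27ac peak of either library lay in the span.

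The genes on either side of this cluster differed from it and from each other. On the left Ndufa10, a subunit gene of mitochondrial complex I that ends 5.86 kb before Olfr1416, had no H3K27me3 peak and carried H3K27ac at 12.3 and 7.64 in replicates 1 and 2. Beyond it, 284 kb from the cluster, the gene of the histone deacetylase Hdac4 carried both marks, with H3K27me3 at 4.02 and 3.67. To the right Cops9, a COP9 signalosome gene 16.1 kb from Olfr12, carried H3K27ac at 7.80 and 7.10 and had an H3K27me3 peak in replicate 1 alone (3.03). The next gene, Otos, which encodes the inner ear protein otospiralin, carried H3K27me3 at 3.12 and 2.94 and had an H3K27ac peak in replicate 2 alone (3.21).

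**Figure D2:**
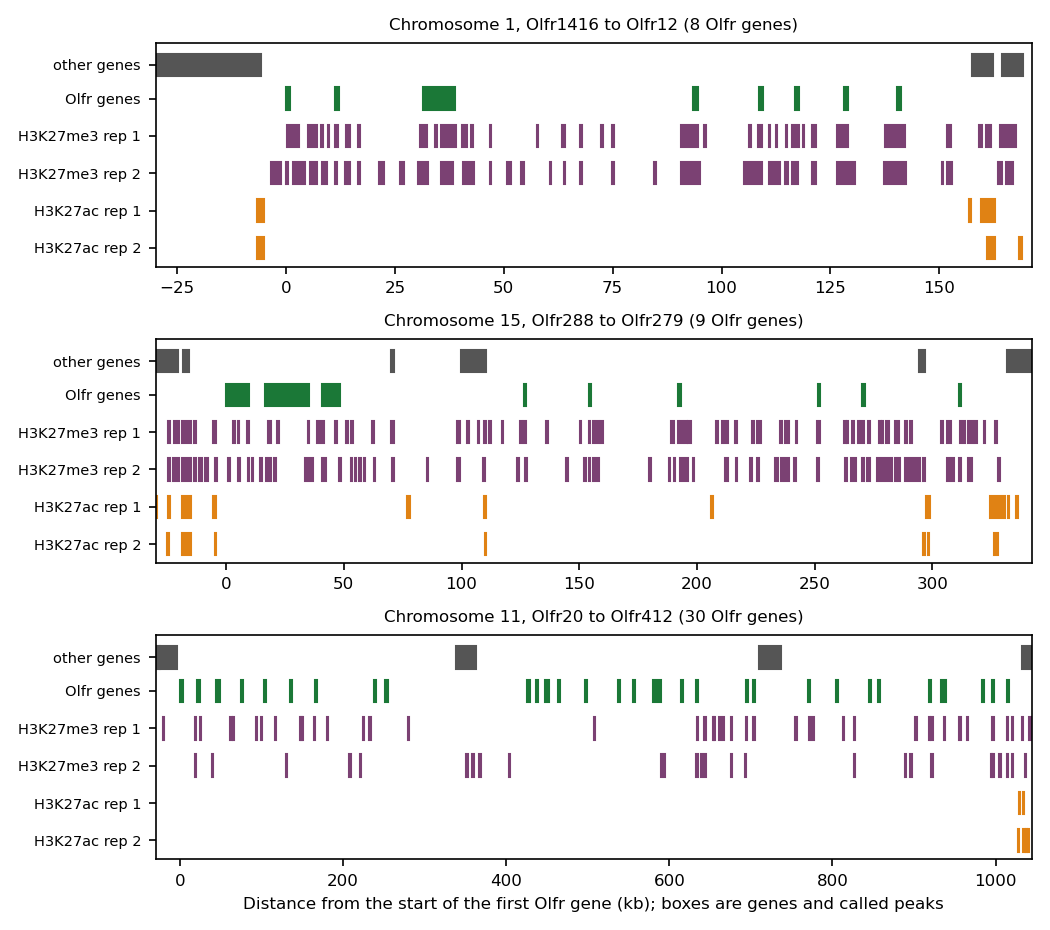
Called peaks of the 4 libraries over 3 receptor clusters, with 30 kb on each side; the x axis is the distance in kb from the start of the first receptor gene, green boxes are receptor genes, dark boxes other protein-coding genes, purple boxes H3K27me3 peaks and orange boxes H3K27ac peaks (short boxes are widened to stay visible). H3K27me3 peaks lie at all 8 and all 9 receptor genes of the upper and middle panels and at few of the 30 in the lower panel, and H3K27ac peaks lie mostly at or beyond the other genes.

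On chromosome 15 the cluster from Olfr288 to Olfr279 (98186011 to 98498406, 312 kb) held 9 genes. Olfr288, Olfr287 and Olfr286 belong to family MOR286, and Olfr285, Olfr284, Olfr283, Olfr282 and Olfr281 to family MOR160. The highest fold enrichment in replicate 1 was at Olfr284, with 4.57, and 3.86 in replicate 2. In replicate 2 the highest was at Olfr286, with 4.35, and 4.23 in replicate 1. The lowest in both libraries was at Olfr285, with 3.28 and 2.94. All 9 genes were thus marked in each library, but the mark was not confined to them, since 10.5% of the receptor windows and 6.71% of the sequence between them were covered in both libraries. The longest stretch of this cluster that touched no protein-coding gene, 13.9 kb from 98463417 to 98477328, held the receptor pseudogenes Olfr240-ps1 and Olfr280-ps1, which were named after their values were seen. Of the genes inside the span, H1f7, a testis histone H1 gene, carried H3K27me3 at 3.69 and 2.80, the zinc finger gene Zfp641 carried both marks, and Lalba, the milk protein alpha-lactalbumin gene, carried H3K27ac at 5.91 and 2.75. The neighbours on the left, Ccdc184 and Asb8, carried both marks, and over Ccdc184 the H3K27me3 peaks stood at 7.16 and 4.96. On the right Kansl2 and Ccnt1, whose product is cyclin T1, carried H3K27ac but were not marked by H3K27me3 (Kansl2 had a peak in replicate 1 alone), with H3K27ac at 10.1 and 10.9 for Kansl2 and 15.1 and 15.2 for Ccnt1.

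The 3 genes from Olfr462 to Olfr464 on chromosome 11 (87888959 to 87915003, 26.0 kb), all of family MOR240, were the smallest cluster of those marked throughout. Fold enrichment in replicates 1 and 2 was 3.88 and 3.92 at Olfr462, 5.19 and 3.72 at Olfr463 and 3.96 and 3.41 at Olfr464. Olfr462 and Olfr463 lay in the longest stretch that touched any of the 119 receptor genes, 19.5 kb after gaps of up to 3 kb were bridged, of which 26.3% was covered in both libraries. On the left, Epx, the eosinophil peroxidase gene, carried H3K27me3 at 3.97 and 3.30 without H3K27ac, and Mks1, a ciliary transition zone gene, carried H3K27ac at 7.57 and 4.53. On the right, the dynein light chain gene Dynll2 and the splicing factor gene Srsf1 carried H3K27ac at 14.9 and 11.2 and at 16.2 and 16.3. Dynll2 also carried H3K27me3, at 2.83 and 2.78.

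From Olfr30 to Olfr225 on chromosome 11 (58454915 to 59614225) a run of 21 receptor genes ending at Olfr311 and a run of 3, Olfr222, Olfr223 and Olfr225, flank a stretch rich in other genes. In the run of 21 genes 13 were marked, among them Olfr330 (5.11 and 3.74 in replicates 1 and 2), Olfr332 (4.31 and 3.61) and Olfr323 (5.13 and 2.81), and all 3 genes of the short run were. The others in the run of 21 were Olfr30, Olfr329, Olfr224, Olfr325, Olfr324, Olfr322, Olfr318, Olfr316, Olfr313 and Olfr311. Olfr222 had the highest fold enrichment of all 119 genes in replicate 1, 7.09, and stood at 3.81 in replicate 2, with 59.5% of its window covered in both libraries. Of the 28 other genes in the span 15 carried H3K27me3, 22 carried H3K27ac and 10 carried both. Over all chromosome 11 genes that are not olfactory receptors the shares were 46.3% for H3K27me3 and 80.8% for H3K27ac. By position the first of the 28 were 2210407C18Rik, Trim58, Fam183b, Gm12258, 2810021J22Rik and Zfp39. The ubiquitin ligase gene Trim58, which acts in red cell maturation, carried H3K27me3 at 7.09 and 4.01 and had no H3K27ac peak, and the zinc finger gene Zfp39 carried H3K27ac at 8.58 and 4.86 and had no H3K27me3 peak. The longest H3K27me3 stretch of the region, 42.8 kb from 59271447 to 59314253, lay over the Wnt ligand genes Wnt3a and Wnt9a, named after their values were seen, and touched no receptor gene. Fold enrichment in it reached 10.5 and 5.63. The length of the longest stretch depends on how it is drawn, with 76.4 kb in replicate 2 and 72.8 kb in replicate 1 by themselves, and in both libraries 14.8 kb when gaps of up to 1 kb were bridged and 149 kb with gaps of up to 10 kb.

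Further toward the start of chromosome 11 marked genes lay mostly at one end of a cluster. Of 19 genes from Olfr1396 to Olfr1380 (49112777 to 49564858), the 9 by position from Olfr1396 to Olfr1390 were marked except Olfr1392, and of the 10 from Olfr1389 to Olfr1380 the marked gene was Olfr1384 (2.88 and 2.80). Single-library peaks lay at Olfr1389 in replicate 2 (2.81) and Olfr1387 in replicate 1 (3.59). Olfr1392 had a peak in replicate 1 alone (2.89). The 8 marked genes of that stretch were Olfr1396, Olfr56, Olfr1395, Olfr1394, Olfr1393, Olfr10, Olfr1391 and Olfr1390. By mean rank over the libraries the leading genes were Olfr1390 (5.11 and 3.76), Olfr1393 (4.86 and 3.73), Olfr56 (3.75 and 4.17) and Olfr10 (3.91 and 4.06). With 500 bp covered in each library 1 of the 19 genes was marked, and at a −log10 q threshold of 2 there were 4. Between the marked genes Olfr1394 and Olfr1393 lie Btnl9, a butyrophilin-like gene with H3K27me3 at 8.95 and 5.27, Zfp62, with H3K27ac at 17.8 and 10.98 and no H3K27me3, and Mgat1, an enzyme gene of N-glycan synthesis with both marks. The small cluster from Olfr1378 to Olfr1375 had 2 of 5 genes marked, Olfr54 (3.21 and 2.85) and Olfr1375 (2.95 and 3.396). Olfr1373 and Olfr1371, which stand between the housekeeping genes Ppp2ca and Skp1, had no H3K27me3 peak in any library, although the pseudogene Olfr1372-ps1 between them was marked.

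**Figure D3:**
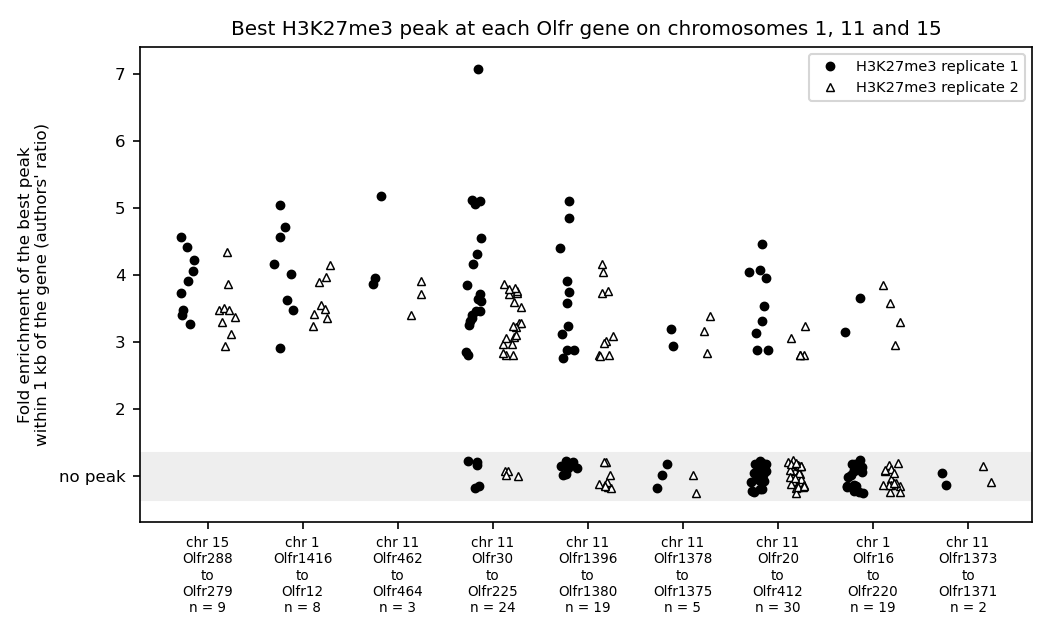
Fold enrichment of the strongest H3K27me3 peak within 1 kb of each of the 119 receptor genes, by cluster (x axis), in replicate 1 (filled circles) and replicate 2 (open triangles); genes without a peak are placed in the grey band, where height has no meaning. Peaks lie between 2.77 and 7.09 in replicate 1 and between 2.80 and 4.35 in replicate 2.

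Lower shares were found in a pair of wide clusters. In the 1015 kb from Olfr20 to Olfr412 on chromosome 11 (73350859 to 74365609) the marked genes were Olfr398, Olfr139, Olfr411 and Olfr412, the first of which starts at 73983662, toward the Rap1gap2 end. At Olfr412 fold enrichment was 4.47 and 2.81, and at Olfr411 4.08 and 2.81. The value 2.81 is the commonest of replicate 2 among these genes, recurs at 5 of the 53 marked genes and is shared by 7.99% of the peaks in that library. Replicate 1, taken by itself, had peaks at 9 genes of this cluster and replicate 2 at 5. All 18 genes of family MOR135 lie here, and 0 of them were marked. No H3K27ac peak of either library lay in the span, and of the other two genes inside it, the zinc finger gene Zfp735 had an H3K27me3 peak in replicate 2 alone (3.55) and Zfp616 had no peak. The right neighbour Rap1gap2, a regulator of the GTPase Rap1 that begins 17.7 kb beyond Olfr412, carried H3K27me3 at 9.51 and 5.15 and H3K27ac at 11.02 and 6.48.

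On chromosome 1 from Olfr16 to Olfr220 (172956768 to 174449602) the marked genes were Olfr432 (3.15 and 3.86) and Olfr414 (3.66 and 3.59). Olfr16, also known as MOR23 and a receptor for the odorant lyral, had no peak in any library. All 8 genes of family MOR267 and all 6 of MOR105 on these chromosomes lie here, and 0 of each were marked. Elsewhere in the genome 2 of 7 MOR267 genes were marked. Inside the span stand 19 other protein-coding genes, of which 14 carried neither mark, and the 13 symbols of the interferon-inducible Ifi200 family and its relatives Aim2 and Mndal made up most of them, with 2 carrying H3K27me3. Fcer1a and Mptx2 had no peak of either mark. Ackr1, an atypical chemokine receptor gene, carried H3K27me3 at 3.87 and 2.93, and Cadm3, an adhesion gene of neurons, carried both marks. The annotated bodies of Ackr1, Cadm3 and Aim2 overlap, so these genes share peaks. To the left Crp and Apcs, which encode pentraxins of the blood plasma, had no peak in any library. To the right Fmn2, a formin gene, carried both marks.

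Each marked receptor gene had peaks of its own, shared with no other marked receptor gene. Over the 53 marked genes the median fold enrichment of the best peak was 3.75 in replicate 1 and 3.41 in replicate 2, against 3.46 and 3.21 over all peaks of these libraries. Those medians were at percentiles 66.3 and 65.3 of the peaks in their libraries. At the 8412 marked genes that are not olfactory receptors the medians were 4.54 and 3.75, though a longer gene offers more peaks to choose the best from. A −log10 q of at least 2 was reached at 39 of the 53 genes in replicate 1 and at 21 in replicate 2, and a −log10 q of at least 5 at 1 gene, Olfr222, in replicate 1 and at 0 in replicate 2. The 53 genes rested on 69 distinct peaks in replicate 1 and 70 in replicate 2, with a median length of 735 and 918 bp, and 0 peaks in either library touched the windows of more than 1 of these genes. A peak at a marked gene also reached the window of a gene that is no chemoreceptor at 1 gene in replicate 1 and at 0 in replicate 2. At 4 of the 53 genes the peaks of the 2 libraries did not share a base inside the window.

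The counts depended on the threshold for a peak. At a −log10 q threshold of 2 in both libraries 19 of the 119 genes were marked, against 22.5% of all protein-coding genes, at a threshold of 5 none (0 of 119, against 5.13%), and with 500 bp covered in each library 30, against 32.8%. At these settings the receptor share lay below the background. With 2.5 kb and 5 kb in place of 1 kb on each side 59 and 64 genes (49.6% and 53.8%) were marked, against 41.5% and 46.2%. A peak in either library was found at 72 (60.5%), against 61.7%. That share too lay below the background, as did that of replicate 1 alone (52.9% against 58.8%).

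The 4 clusters with at least 60% of genes marked were picked for peaks within 1 kb of their genes, so a maximum near the gene follows from that choice and is no finding. In them 39 genes had an annotated strand. In the 500 bp just downstream of their annotated starts 55.2% and 61.5% of bases lay under peaks of replicates 1 and 2, and this was the highest bin within 20 kb on each side. Over the bins beyond 10 kb coverage averaged 14.2% and 21.3%. In the other clusters of the 3 chromosomes, with 65 such genes, the highest bins reached 8.31% and 9.28%, also within 1 kb downstream. At 352 genes of chromosomes 2 and 9 coverage averaged 0.235% and 0.153% from 1 kb upstream to 2 kb downstream, with no rise over the 0.391% and 0.265% beyond 10 kb. These groups of clusters were formed after the values were seen and are given as a description.

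**Figure D4:**
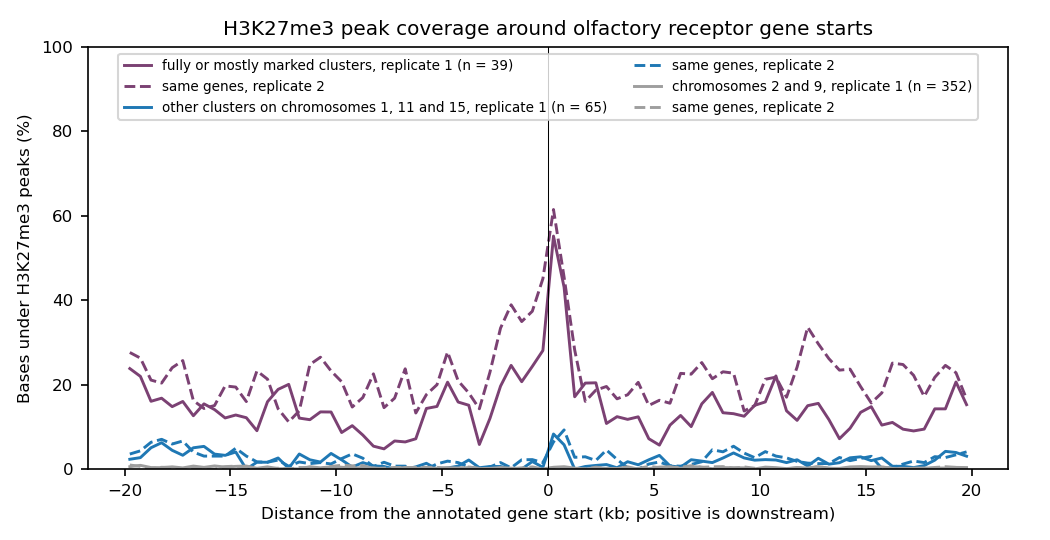
Percentage of bases under H3K27me3 peaks in bins of 500 bp by distance from the annotated gene start in kb (positive values are downstream), for receptor genes of the 4 clusters of chromosomes 1, 11 and 15 with at least 60% of genes marked (purple), of the other clusters of these chromosomes (blue) and of chromosomes 2 and 9 (grey). Solid lines are replicate 1 and dashed lines replicate 2; the purple lines reach 55.2% and 61.5% just downstream of the start.

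Stretches covered in both H3K27me3 libraries, joined across gaps of up to 3 kb, numbered 172 in the 9 clusters with 50 kb on each side, with a median length of 745 bp. Of these 50 touched a receptor window, 50 touched windows of genes that are not chemoreceptors and no receptor window, and 72 touched neither. No stretch touched both kinds of gene. At least 10 kb was reached by 10 stretches, of which 3 touched receptor genes, and each of these 3 held a pair of them: Olfr462 with Olfr463, Olfr1416 with Olfr1415 (16.9 kb) and Olfr1412 with Olfr1411 (11.2 kb). In that order 26.3%, 30.9% and 31.0% of their length was covered in both libraries, and the rest was bridged gaps. The fully marked clusters, each with its 50 kb margins, held many separate stretches, 15 for the Olfr1416 cluster, 26 for the Olfr288 cluster and 9 for the Olfr462 cluster. Of 31 receptor pseudogenes on the 3 chromosomes 4 were marked, against 1 of 138 on chromosomes 2 and 9. The share was 38.9% over all protein-coding genes and 10.6% over those of up to 1300 bp that are not olfactory receptors.

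H3K27ac was all but missing from the 119 genes. Peaks of both libraries marked 0 of them, against 67.5% of all protein-coding genes and 16.0% of other protein-coding genes of up to 1300 bp. A single library had a peak at 2 genes, Olfr433 in replicate 1 (3.64) and Olfr1377 in replicate 2 (2.75), and each of these also had an H3K27me3 peak in replicate 2 alone (3.30 and 3.16). For all protein-coding genes the shares were 70.9% and 68.9% in replicates 1 and 2 by themselves and 72.3% in either, and with 5 kb on each side 1 receptor gene was marked, against 70.0%. On chromosomes 2 and 9, 1 of 417 receptor genes carried H3K27ac, Olfr1033, at 3.67 and 3.71. The other genes around and inside the clusters carried both kinds of mark. Among the 36 genes that stand next to the 9 clusters, 2 on each side, 19 carried H3K27me3, 24 carried H3K27ac, 11 both and 4 neither. Of the 55 other genes inside the spans, 24 carried H3K27me3 and 29 H3K27ac, among them 5 and 3 of 19 inside the cluster from Olfr16 and 0 and 0 of 2 inside that from Olfr20. Some of these genes overlap and were counted on the same peaks. Over all genes that are not olfactory receptors, H3K27ac marked 74.0% on chromosome 1, 80.8% on chromosome 11 and 78.6% on chromosome 15. For H3K27me3 the shares were 43.8%, 46.3% and 49.9%, in that order.

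Marked and unmarked receptor genes differed in base composition. Start windows of the 44 marked genes that had one held a median of 46.7% GC (37.3% to 59.0%) and 3 CpG, those of 16 genes with a peak in 1 library 40.5% and 1.5 CpG, and those of 44 genes with no peak 36.5% (25.7% to 45.7%) and 1 CpG. Marked genes and genes with no peak overlapped between 37.3% and 45.7% GC. With at least 45% GC 24 of 28 genes of the 3 chromosomes were marked, from 40% up to 45% 14 of 35, from 35% up to 40% 6 of 18, and below 35% 0 of 23. Over all genes that are not olfactory receptors the marked share also rose with GC. It was 42.1%, 24.3%, 13.9% and 11.6% in these classes from high to low. On chromosomes 2 and 9, by the same classes from high to low, 0 of 5, 1 of 22, 0 of 93 and 2 of 232 were marked, and on all chromosomes outside the 3 (2 and 9 included) 27 of 61 with at least 45% GC were. Few genes of chromosomes 2 and 9 therefore had windows as rich in GC as the marked genes, with a median of 33.3% against 41.3% over the 104 genes of chromosomes 1, 11 and 15. Within the split cluster from Olfr1396 to Olfr1380 the medians were 39.3% at 7 marked and 38.3% at 10 other genes, and in the Olfr30 to Olfr225 cluster 43.0% at 15 and 42.0% at 6. The medians lay further apart in the Olfr20 to Olfr412 cluster, with 43% at 2 marked and 33.3% at 24 other genes. In the Olfr16 to Olfr220 cluster they were 42.3% at 2 and 38% at 15. The part of base composition in the counts was not tested, and mappability and the yield of GC-rich fragments in each library were not analysed here.

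**Figure D5:**
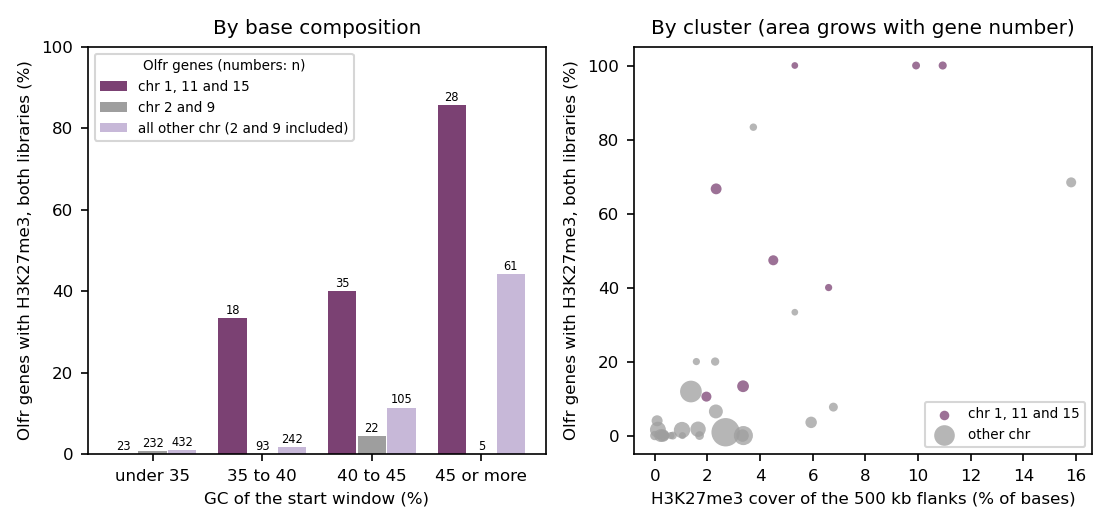
Left, percentage of receptor genes with H3K27me3 in both libraries by GC content of the start window (classes in %), for chromosomes 1, 11 and 15, for chromosomes 2 and 9 and for all chromosomes outside the 3; numbers over bars are genes. Right, the same percentage for each of 34 clusters of at least 3 genes against the percentage of bases covered by both H3K27me3 libraries in 500 kb on each side. The marked share is 85.7% in the highest GC class of chromosomes 1, 11 and 15, and the fully marked clusters have 5.32% to 10.9% of their flanks covered.

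The sequence around the clusters varied as well. In 500 kb on each side, stretches covered by both H3K27me3 libraries took 10.9% around the Olfr288 cluster, 9.92% around the Olfr1416 cluster and 5.32% around the Olfr462 cluster, against 3.35% and 1.96% around the clusters from Olfr20 and from Olfr16. The partly marked clusters from Olfr1396 and from Olfr1378 had 4.4995% and 6.60%. Over the 34 clusters of at least 3 genes the share of marked genes went with the cover of the flanks (Spearman's rho 0.70, Pearson's r 0.70), with the H3K27ac cover of the flanks (0.70 and 0.66) and with the median GC of the start windows (0.65 and 0.80). The 9 clusters of chromosomes 1, 11 and 15 include that of 2 genes, Olfr1373 and Olfr1371, which is not among the 34. Over these 9 clusters, rho and r were 0.70 and 0.73 for H3K27me3 cover, 0.31 and 0.39 for H3K27ac cover and 0.76 and 0.86 for GC. These clusters share libraries and depth, the measures are not independent of each other, and the coefficients describe the clusters only. The cluster from Olfr30 to Olfr225 combined 66.7% of genes marked with 2.33% of its flanks covered. When receptor genes were joined only below 500 kb, its runs of 21 and 3 genes were taken singly and 13.4% and 10.4% of their flanks were covered. Marked genes stood a median of 24.4 kb from the nearest gene that is no chemoreceptor, and genes without a peak 61.7 kb. These medians pool the clusters, and 20 of the 47 genes without a peak lie in the cluster from Olfr20 to Olfr412. Distances were not compared within clusters.

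Motifs known from receptor promoters were sought in the same windows on both strands. In 61 of the receptor windows the annotated start is the coding ATG, so the promoter may lie outside them. The counts therefore do not show which promoters hold a motif. The letters CCCNNGGG, the core of sites for Ebf factors, were found in 4 of 44 marked genes and 0 of 60 other genes of the 3 chromosomes, against 13.4% of 27025 RefSeq start windows. The letters TAATNA, built on the core of homeodomain sites, were found in 17 of 44 and 46 of 60, against 26.8% of all windows. Neither motif contains the other. Base composition differs between these genes as given above, and its part in the motif counts was not tested.

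Genes whose products act on receptor genes and receptors carried H3K27ac throughout the lists. The counts of this paragraph stand beside 38.9% for H3K27me3 and 67.5% for H3K27ac over all protein-coding genes. Of 19 genes for receptor gene choice and heterochromatin 9 carried H3K27me3 and 19 H3K27ac. Lhx2, a homeodomain factor needed for receptor choice, stood at 8.67 and 4.94 for H3K27me3 and 13.8 and 10.2 for H3K27ac, its cofactor gene Ldb1 carried H3K27ac alone, and Ebf1 and Ebf2 carried both marks. Of 12 genes for receptor trafficking and odorant transduction, 7 of them also on the list of mature neurons, 8 carried H3K27me3 and 12 H3K27ac, among them Rtp1, Rtp2 and Reep1, whose products help receptors reach the cell surface, while Ric8b carried H3K27ac and had an H3K27me3 peak in replicate 1 alone (4.07). As a check of the cell type, 7 of 10 globose basal cell and progenitor genes carried H3K27me3 and 10 carried H3K27ac, with Kit, Neurog1 and Neurod1 under both marks. Other lists carried H3K27ac too, at 7 of 8 mature olfactory neuron genes (Omp, Gnal, Adcy3 and Cnga2 among them), 3 of 5 of horizontal basal cells (Krt14 but not Krt5 or Krt15 in both libraries, and Trp63), 5 of 5 of sustentacular cells (Cyp2g1, Cyp1a2, Sult1c1 and Muc2 among them), 4 of 5 of leukocytes (Ptprc, Csf1r and Cd68 but not Itgam) and 1 of 5 of mast cells (Hdc, with none in either library at Cpa3, Mcpt4, Tpsb2 and Fcer1a). The part of other cells in the H3K27me3 at receptor genes was not tested.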

How the data were processed

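Per the submitters' processing notes, reads were processed with fastp, Bowtie, Picard and MACS2 on build GRCm38 (mm10), and their versions are not given in the sources used here. Deposited by the authors was 1 broad-peak list of 9 columns for each of 4 libraries, called separately. Each peak has a fold enrichment, a linear ratio deposited by the authors, a −log10 p and a −log10 q deposited by the authors, and a deposited score that follows the −log10 q. These are the authors' own values and only describe, rank or filter peaks within a list. The smallest −log10 q was just above 1 (q of 0.1). Read depth is unknown, so no interval or detection limit is given, and absence of a peak means only that none passed. An input title in the labels names both H3K27me3 replicate 1 and H3K27ac replicate 2.

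Gene positions are those of RefSeq on GRCm38.p6. Peaks were intersected with gene windows in Python 3.11.15 with pandas 2.3.3, after the overlap functions were checked on 200 simulated cases. The design has 2 libraries a mark and no second group, so no test was made. Genes, lists and the contrast were chosen with earlier results of these data known. Marked genes are named by cluster, with values for at most 20 in the order of mean rank of fold enrichment. Values of other receptor genes, given to show a cluster's range or single-library peaks, and the gene Hdc were chosen after they were seen. Genes with H3K27ac in any library, 2 neighbours on each side, up to 6 genes inside a cluster by position and up to 4 genes of each list are named as well. Windows, overlap, thresholds, replicates and gaps were varied. Some genes that this rule would name are not reported here.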

Additional observations from a re-analysis of the deposited data

How the results depend on the processing

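Of 52 alternatives over 5 results, 29 stayed within 1.5 times the value given. Among these 29 are alternatives in which a count of 0 stayed 0. A stricter rule cannot change a 0, so the 29 are no measure of stability. The 53 marked genes became 30 when 500 bp had to be covered in each library (background 32.8%), 19 at a −log10 q threshold of 2 (22.5%) and 0 at one of 5 (5.13%). In replicates 1 and 2 taken alone (without replicate 2 or without replicate 1) the count was 63 and 62. The 8 genes of the Olfr1416 cluster gave 7 at 500 bp and 4 at the threshold of 2, the 9 of the Olfr288 cluster 7 and 2, the 16 of the Olfr30 cluster 11 and 6, the 9 of the Olfr1396 cluster 1 and 4, and the 3 of the Olfr462 cluster 3 and 2. On chromosome 2 the 3 marked genes became 8 with 5 kb on each side, 11 with a peak in either library, 0 with 500 bp covered and 0 at either threshold, and 6 to 8 with 1 library left out. On chromosome 9 the 0 became 1 with 2.5 kb on each side, 5 with 5 kb, 6 in either library, and 2 to 4 with 1 library left out. For H3K27ac the 0 genes became 1 with 5 kb on each side, 2 in either library, and 1 with either library left out. The 172 stretches became 94 when gaps of 10 kb were bridged, 54 at the threshold of 2 and 2 at that of 5, and 222 to 271 with 1 library left out. These changes follow from how much each alternative counts. The unknown depth limits all counts, since the −log10 q grows with it. No paired analysis was possible because no result comes from a test, and replicate numbers do not pair the libraries of the marks.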
